A study of Mus musculus with 6 samples.

Results

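Hexose transporters and the enzymes of fructose breakdown were followed in RAW264.7 cells, a mouse macrophage-like line that grew from a tumour induced by Abelson leukaemia virus. The 10 genes were chosen by name among the 24379 genes of the count table: the facilitative transporter genes Slc2a1, Slc2a3, Slc2a5, Slc2a6, Slc2a8 and Slc2a9, and the enzyme genes Khk, Tkfc, Glyctk and Aldoc. All 10 were listed, each under 1 identifier, 9 were counted often enough to be tested, and Slc2a5 was not. RNA sequencing covered 6 libraries. The labels assign 3 to high-fructose corn syrup (HFCS), a sweetener made of free fructose and glucose, and 3 to a group called WT, here the control. The labels give no genotype that differs between the groups. All libraries carry a time of 18 h. For the HFCS group the titles give 140 mM and the source names 170 mM, so the dose is uncertain, and no source used here says what the control medium held. Nothing says that replicates were separate cultures, so the spread behind the p-values is that of these libraries and may be technical.

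Hexoses cross the plasma membrane through facilitative transporters of the GLUT family, encoded by the Slc2a genes, each with its own choice of sugars and its own place in the cell. In the liver, kidney and gut, fructose that has entered is phosphorylated by ketohexokinase (Khk) and split by an aldolase, and its glyceraldehyde is phosphorylated by triokinase (Tkfc), or else enters by way of glycerate, which glycerate kinase (Glyctk) phosphorylates. Macrophages are known mainly for taking up glucose through GLUT1, the product of Slc2a1, and hexokinases can also phosphorylate fructose.

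The libraries held 13108485 to 15340255 counts. Levels are given in CPM, a gene's reads relative to the size of its library after TMM scaling between libraries. On the second principal component, which held 12.2% of the variance, control replicate 1 lay at 23.4, HFCS replicates 1 and 2 at 5.69 and 5.14, and the other 3 libraries between -12.7 and -9.98. Of 10 macrophage markers 9 were listed, and together they reached 2134 to 2164 CPM in the HFCS group and 1838 to 1916 CPM in the control group. Of the 9, 6 were higher in the HFCS-labelled libraries, among them Adgre1 (log2 fold change 1.04) and Fcgr3 (1.68), Cd68 (-0.42) and Csf1r (-0.67) were lower, and Aif1 did not pass the test used below; their part in the results was not tested. Markers of epithelial cells, fibroblasts, T cells, B cells and hepatocytes summed to at most 1.07 CPM per list in any library. The markers Mrc1, Epcam, Krt18, Cdh1, Col1a2, Cd8a, Ms4a1, Ttr, Apoa1 and Slc2a2 were not found by symbol among the counted genes. Akr1b3, the aldose reductase gene that hypertonic medium is known to raise, lay lower in the HFCS-labelled libraries, so groups are called by their labels here, on which each direction depends.

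Of the 9 tested genes, Slc2a3 was higher in the HFCS-labelled libraries, Aldoc, Tkfc, Slc2a1 and Slc2a9 were lower, and Slc2a6, Slc2a8, Khk and Glyctk stayed above the adjusted p of 0.05 (quasi-likelihood test of edgeR, Benjamini-Hochberg adjustment over all tested genes). The number that passed, 5 of 9, stands against 44.9% of all 14360 tested genes (22.4% higher and 22.5% lower), so the share is near the background. The groups' libraries did not overlap for 6 of the 9, against 54.5% of all tested genes. The median log2 fold change was -0.26 over the 9 genes and -0.0045 over all tested genes, and the median size of the change was 0.28 against 0.33. The changes in Aldoc and Tkfc were larger than or equal to those of 95.03% and 84.3% of all tested genes, while the size of the change in Slc2a1 stood at the 43.5th percentile.

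**Figure D1:**
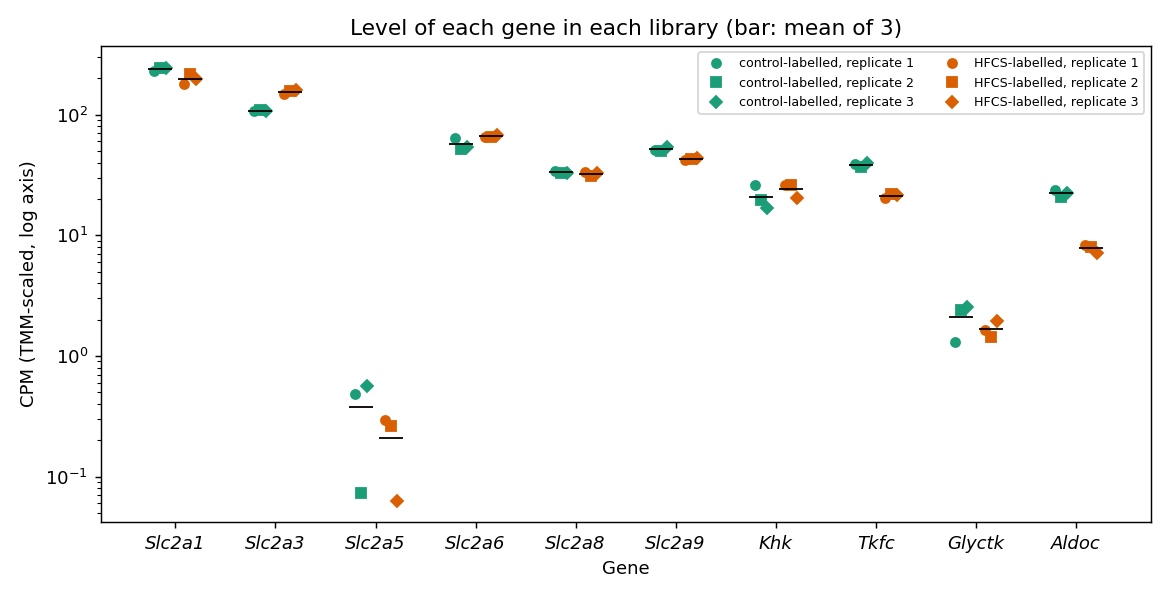
Level of each of the 10 genes in each library, in TMM-scaled CPM on a log axis, with control-labelled libraries in green, HFCS-labelled libraries in orange, 1 marker shape per replicate number and a bar at the mean of 3. The groups stand apart for Slc2a1, Slc2a3, Slc2a6, Slc2a9, Tkfc and Aldoc, and Slc2a5 stays under 1 CPM in every library.

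Slc2a1 codes for GLUT1, the glucose transporter found in most cells. It lies on mm10 chromosome 4, 119108711 to 119137983, plus strand. Its exons share 105 bases with the antisense gene Gm12868, which had 4 to 10 counts per library. Its level was 181, 216 and 198 CPM in the HFCS-labelled libraries, replicates 1 to 3 in this order here and below, and 231, 246 and 244 CPM in the control-labelled ones. Every HFCS-labelled library was below every control-labelled one, by a small margin between HFCS replicate 2 and control replicate 1. The log2 fold change was -0.28 ± 0.07 (SE, n = 3 each), a level 1.21-fold lower (edgeR adjusted p = 0.0116). Without HFCS replicate 1, the lowest library, it was -0.20 and did not pass (edgeR adjusted p = 0.0845).

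Slc2a3 codes for GLUT3, a glucose transporter of high affinity known best from neurons and white blood cells. It lies on chromosome 6, 122727809 to 122801640, minus strand. It had 148, 157 and 161 CPM in the HFCS-labelled libraries and 108, 109.6 and 106 CPM in the control-labelled ones. The groups were well apart and the control-labelled values close together, with means of 155 ± 6.80 and 108 ± 1.65 CPM (SD, n = 3 each). This was a log2 fold change of 0.53 ± 0.06 (SE), a level 1.44-fold higher (edgeR adjusted p = 1.0e-04). It passed under all 14 other settings tried.

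The pair of glucose transporters therefore moved in opposite directions, and their ratio within a library does not depend on the scaling between libraries. Slc2a3 had 0.816, 0.727 and 0.813 reads per Slc2a1 read in the HFCS-labelled libraries, against 0.466, 0.446 and 0.435 in the control-labelled ones. All HFCS-labelled ratios lay above all control-labelled ones, with a mean difference of 0.81 on the log2 scale. This follows from the levels above, where both genes separated the groups in opposite directions, so the ratio is no further support. A two-sided exact permutation test over the libraries gave p = 0.1, the smallest that 3 against 3 allows (0.133 adjusted over 4 measures). The 4 measures were the pair ratios given here and below and a sum over transporters, which does depend on the scaling. All were chosen after the counts were seen. Summed over the 6 transporter genes, the HFCS group had 495 ± 21.7 CPM and the control group 489.8 ± 1.95 CPM (SD, n = 3 each), with overlapping groups (exact permutation p = 0.7, same value after adjustment).

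**Figure D2:**
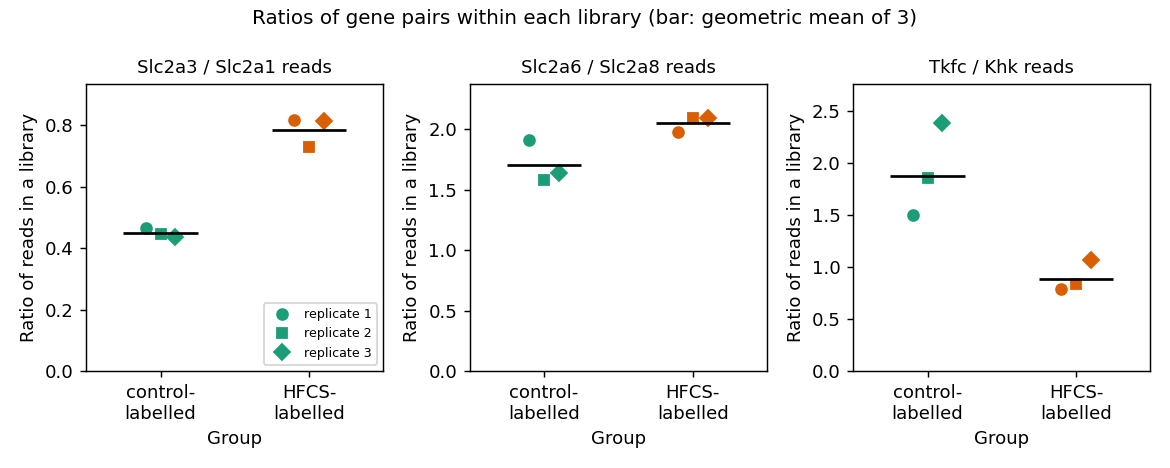
Ratio of reads between 2 genes within each library, for Slc2a3 over Slc2a1, Slc2a6 over Slc2a8 and Tkfc over Khk, on linear axes from 0, with a marker per library and a bar at the geometric mean of 3. Control-labelled libraries had 0.435 to 0.466 Slc2a3 reads per Slc2a1 read and HFCS-labelled ones 0.727 to 0.816.

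Slc2a5 codes for GLUT5, the transporter that carries fructose across the gut wall. It lies on chromosome 4, 150119283 to 150144169, plus strand. Its reads numbered 4, 4 and 1 in the HFCS-labelled libraries and 7, 1 and 8 in the control-labelled ones. These counts are close to the floor of 3 counts, which is 0.190 to 0.222 CPM in a library, and the groups overlap. The totals of 9 and 16 reads give a ratio of 0.563 with an exact 95% interval of 0.219 to 1.35, which covers counting error only. A difference smaller than that interval was not detectable at this depth.

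Slc2a6 and Slc2a8 code for GLUT6 and GLUT8, transporters that sit mostly on membranes inside the cell. Slc2a6 (chromosome 2, 27021363 to 27027998, minus strand) had 65.7, 65.0 and 68.0 CPM in the HFCS-labelled libraries and 64.4, 51.7 and 53.6 CPM in the control-labelled ones. Control replicate 1 nearly reached the HFCS-labelled libraries, while control replicates 2 and 3 were lower. The log2 fold change of 0.23 ± 0.09 (SE) did not pass (edgeR adjusted p = 0.0657), and its 95% interval was 0.02 to 0.43. Without control replicate 1 it was 0.33 and passed (edgeR adjusted p = 0.00146).

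Slc2a8 (chromosome 2, 32972990 to 32982083, minus strand) changed least of the 9 tested members, with 33.3, 31.0 and 32.5 CPM in the HFCS-labelled and 33.8, 32.8 and 32.8 CPM in the control-labelled libraries. The groups overlapped, and the log2 fold change was -0.04 with a 95% interval of -0.23 to 0.15 (edgeR adjusted p = 0.741). Slc2a6 had 1.97 to 2.09 reads per Slc2a8 read in the HFCS-labelled and 1.58 to 1.91 in the control-labelled libraries (exact permutation p = 0.1, 0.133 adjusted). These ranges did not overlap, though control replicate 1 came close. Slc2a6 alone did not overlap either, so the ratio is no separate support.

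Slc2a9 codes for GLUT9, best known as a carrier of urate. It lies on chromosome 5, 38349273 to 38503143, minus strand. It had 42.2, 42.8 and 43.7 CPM in the HFCS-labelled libraries and 50.5, 49.8 and 54.0 CPM in the control-labelled ones, with no overlap. On the log2 scale it fell by 0.26 ± 0.08 (SE), a level 1.20-fold lower (edgeR adjusted p = 0.0179). The call was lost under 6 of the 14 other settings, among them leaving out any 1 HFCS-labelled library or control replicate 3 (edgeR adjusted p of 0.0516 to 0.0930).

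Khk codes for ketohexokinase, which commits fructose to its own route by making fructose 1-phosphate, and Tkfc codes for triokinase, which acts further down that route. Aldoc codes for aldolase C, the aldolase known from brain. Tkfc and Aldoc were the members that fell most and Khk the one that starts the route, so the 250 bases before their RefSeq start sites (GRCm38.p6, the build named mm10 in the sources) are shown. The RefSeq start-site table used here was matched for 9 of the 10 members, all but Slc2a3. Capitals mark matches on either strand to 3 short motifs, which are spelled out after the sequences. The windows are chr5:30921309-30921558 (plus strand) for Khk, chr19:10604259-10604508 (minus strand) for Tkfc and chr11:78322823-78323072 (plus strand) for Aldoc. The gene spans given below start earlier than these RefSeq sites, at 30921431 for Khk and 78322968 for Aldoc. The capitals in those windows therefore lie within the gene spans.

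Khk: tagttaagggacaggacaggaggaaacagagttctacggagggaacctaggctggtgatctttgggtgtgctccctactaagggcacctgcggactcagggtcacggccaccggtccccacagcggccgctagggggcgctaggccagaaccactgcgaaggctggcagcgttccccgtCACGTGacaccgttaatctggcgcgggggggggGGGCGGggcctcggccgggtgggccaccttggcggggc
Tkfc: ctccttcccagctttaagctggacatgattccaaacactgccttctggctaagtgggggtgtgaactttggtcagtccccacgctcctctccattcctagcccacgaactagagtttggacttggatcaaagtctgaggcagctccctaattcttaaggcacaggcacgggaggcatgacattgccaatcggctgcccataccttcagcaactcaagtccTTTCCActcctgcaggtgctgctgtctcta
Aldoc: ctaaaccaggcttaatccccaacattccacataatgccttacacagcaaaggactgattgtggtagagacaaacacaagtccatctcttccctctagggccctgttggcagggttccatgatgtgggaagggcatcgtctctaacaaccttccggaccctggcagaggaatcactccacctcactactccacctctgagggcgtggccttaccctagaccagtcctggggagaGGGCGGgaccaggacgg

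In the Khk window the capitals that start at -71 spell CACGTG, an E-box. MondoA and ChREBP, transcription factors that respond to hexose phosphates, bind an element with a pair of E-box motifs. This window held a single copy of CACGTG, which is not specific to them. The E-box reads the same on both strands and holds overlapping copies of the core bound by hypoxia-inducible factors, ACGTG. Of 32851 windows of this length before mouse start sites, 6.02% held the E-box and 16.6% held the hypoxia core. Among the members' entries the E-box was in that of Khk alone, and the hypoxia core also in that of Slc2a1.

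In the Tkfc window the capitals that start at -30 are, on the opposite strand, TGGAAA, the first bases of the tonicity element of the transcription factor NFAT5. These first bases were in 18.6% of windows. The full tonicity element was in 4.31% of windows and the NF-kB site in 3.90%, and none of the members' entries held either. A GC box, the site of Sp1, stands at -17 in the Aldoc window as GGGCGG and was in 32.7% of windows. The same letters stand at -38 in the Khk window and in the entries of Slc2a1, Slc2a5 and Slc2a6. A later Aldoc start has its own entry, without that box and with the first bases of the tonicity element. Those first bases also stood at -209 in the entry of Slc2a8, the tested member that changed least. These matches describe letters, not bound sites, and say nothing of whether a factor was bound.

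Khk (chromosome 5, 30921431 to 30931248, plus strand) had 26.1, 26.3 and 20.2 CPM in the HFCS-labelled libraries and 26.0, 19.8 and 16.8 CPM in the control-labelled ones. The groups overlapped, and the higher Khk values belonged to HFCS replicates 1 and 2 and control replicate 1, the 3 libraries with positive values on the second principal component; whether that component bears on Khk was not tested. The log2 fold change was 0.21 with a 95% interval of -0.15 to 0.58 (edgeR adjusted p = 0.323). Without control replicate 1 it was 0.41 and passed (edgeR adjusted p = 0.0207), and under the other 13 settings it did not. Counts per gene do not part the 2 isoforms that Khk is known to make.

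Tkfc (chromosome 19, 10592200 to 10604258, minus strand) had 20.5, 21.9 and 21.6 CPM in the HFCS-labelled libraries and 39.0, 36.6 and 40.0 CPM in the control-labelled ones. The libraries of each group lay close together and the groups far apart. This was a log2 fold change of -0.85 ± 0.09 (SE), a level 1.80-fold lower (edgeR adjusted p = 4.1e-05), and it passed under all 14 other settings. Tkfc had 0.787, 0.834 and 1.07 reads per Khk read in the HFCS-labelled libraries, against 1.5, 1.85 and 2.39 in the control-labelled ones. This ratio did not overlap between groups (exact permutation p = 0.1, 0.133 adjusted). Tkfc alone did not overlap either, while Khk did, so the ratio is no separate support for the change in Tkfc. The share of other gene pairs without overlap was not computed.

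Glyctk (chromosome 9, 106152857 to 106158138, minus strand) was sparse, with 22, 22 and 31 counts in the HFCS-labelled and 19, 33 and 36 counts in the control-labelled libraries. The groups overlapped, and the log2 fold change of -0.31 had a 95% interval of -1.03 to 0.40 (edgeR adjusted p = 0.462). Its exons share 2203 bases with the antisense gene D030055H07Rik, which had 7 to 16 counts per library, and the strand setting of the counting is not given, so their reads cannot be told apart.

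Aldoc (chromosome 11, 78322968 to 78327781, plus strand) had 8.31, 7.97 and 7.14 CPM in the HFCS-labelled libraries and 23.6, 20.7 and 22.3 CPM in the control-labelled ones. The highest HFCS-labelled library was far below the lowest control-labelled one. On the log2 scale Aldoc fell by 1.51 ± 0.12 (SE), a level 2.85-fold lower (edgeR adjusted p = 7.2e-06), and it passed under all 14 other settings.

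**Figure D3:**
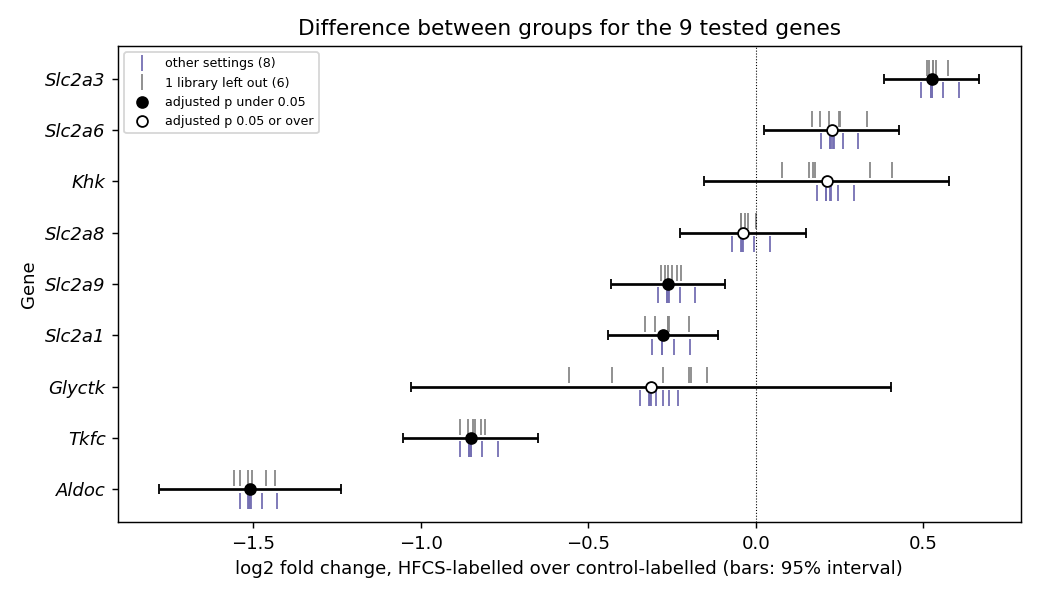
log2 fold change (HFCS-labelled over control-labelled) of the 9 tested genes with 95% intervals; filled points passed an adjusted p of 0.05, purple ticks below are 8 other settings and grey ticks above are the 6 fits with 1 library left out. Slc2a3, Tkfc and Aldoc keep their side of 0 with narrow spreads, while ticks of Slc2a8 fall on both sides.

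Levels were also compared between genes after division by the length of all exons of a gene. Slc2a1 was the most abundant member in both groups, with 56.6 ± 4.90 CPM per kb in the HFCS and 68.6 ± 2.30 CPM per kb in the control group (SD, n = 3 each). In the control-labelled libraries Slc2a6 (17.6 CPM per kb), Slc2a3 (14.9), Khk (11.6), Slc2a8 (10.3), Slc2a9 (10.1), Tkfc (8.35), Aldoc (6.80), Glyctk (0.494) and Slc2a5 (0.110) followed, where Khk overlapped Slc2a8 and Slc2a8 overlapped Slc2a9. In the HFCS-labelled libraries the order was Slc2a3 (21.4 CPM per kb), Slc2a6 (20.6), Khk (13.5), Slc2a8 (10.1), Slc2a9 (8.44), Tkfc (4.63), Aldoc (2.39), Glyctk (0.396) and Slc2a5 (0.0608), and there Slc2a3 overlapped Slc2a6. The order depends on the length used, and the exons of Slc2a3 cover 7245 bases in all but 3959 in its longest coding transcript. With the longest coding transcripts, chosen after the data were seen, Slc2a3 came second in both groups, at 39.2 CPM per kb in HFCS-labelled and 27.2 in control-labelled libraries, though in the latter it overlapped Slc2a6 (26.5). Khk then took rank 7 in the control-labelled libraries, at a mean of 13.2 CPM per kb below Slc2a8 (15.7), Slc2a9 (14.3) and Tkfc (14.0), though its libraries, at 10.6 to 16.4, overlapped all 3. In the HFCS-labelled libraries Khk, at 12.8 to 16.6 CPM per kb, overlapped Slc2a8 at 14.7 to 15.8.

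Other transporters of hexoses were mostly too low to test. Of 11 listed by name, 4 were tested, 6 were too low, and Slc2a2 was not found by symbol among the counted genes. Of the 4 tested, only Slc2a13 passed, and it fell, beside 44.9% of all tested genes that passed. Slc2a13, a family member that carries myo-inositol with protons, was counted 1, 4 and 1 times in the HFCS-labelled and 76, 107 and 103 times in the control-labelled libraries, a level 47.6-fold lower by summed counts (exact 95% interval 21.6 to 131, edgeR adjusted p = 3.4e-06). Its fitted log2 fold change rests on few reads, at -5.57 with all libraries and -6.45 without HFCS replicate 2. It passed the filter on low counts through the control-labelled libraries alone, so its p-value is no independent support. The interval covers counting error only. Slc2a4, the insulin-regulated transporter of muscle and fat, had 8.91 ± 1.53 against 10.9 ± 2.003 CPM (edgeR adjusted p = 0.226). The log2 fold changes of Slc50a1, a sugar transporter of the SWEET family, and Slc5a1, the sodium-coupled glucose transporter, were -0.12 and -0.18, and neither passed (edgeR adjusted p = 0.318 and 0.837).

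Among 11 tested entries for other enzymes that feed or follow the route, 1 was higher, 3 were lower and 7 did not pass, so that 4 of 11 passed beside 44.9% of all tested genes. Hk1, the hexokinase of most tissues, had 160.3 ± 4.76 CPM in the HFCS group and 223 ± 12.2 CPM in the control group, a log2 fold change of -0.48 ± 0.07 (SE, edgeR adjusted p = 2.3e-04). Hk2 (0.19) and Hk3 (-0.12) did not pass (edgeR adjusted p = 0.103 and 0.346), though Hk2 did with scaling by library totals (edgeR adjusted p = 0.0256) and without control replicate 1 (0.0175). Aldoa, the aldolase gene with the most reads here, is listed under 2 identifiers. The one with most reads fell from 1512 ± 134 to 995 ± 102 CPM (log2 fold change -0.60, edgeR adjusted p = 3.3e-04) and the other, at 4.76 ± 0.283 against 7.03 ± 0.224 CPM, rose (0.56, edgeR adjusted p = 0.0140), so how reads were divided between them is uncertain.

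The polyol route makes fructose from glucose inside the cell, through sorbitol. Its first gene, Akr1b3, had 208 ± 11.99 CPM in the HFCS group and 7422 ± 381 CPM in the control group (log2 fold change -5.16, edgeR adjusted p = 5.2e-11). Sord, which oxidises sorbitol to fructose, had 105 ± 8.28 against 93.2 ± 1.09 CPM and did not pass (edgeR adjusted p = 0.0791). It passed with scaling by library totals (edgeR adjusted p = 0.0164) and without HFCS replicate 3 (0.0331).

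Of 13 tested genes of the fructose 6-phosphate branch, which use or make the hexose phosphate where glucose and fructose carbon can meet, 7 fell, 1 rose and 5 did not pass, beside 22.5% of all tested genes that fell and 22.4% that rose. The phosphofructokinase gene Pfkm fell from 106 ± 12.1 to 43.4 ± 3.68 CPM (log2 fold change -1.28, edgeR adjusted p = 5.0e-06). The transketolase gene Tkt (-0.61), the phosphofructokinase gene Pfkp (-0.61) and Pfkfb2 (-0.49), which sets fructose 2,6-bisphosphate, fell as well. Gfpt1, which opens the hexosamine route, was the member that rose (0.25, edgeR adjusted p = 0.0196; named after its value was seen), and it did not pass without HFCS replicate 2, HFCS replicate 3 or control replicate 3 (0.0518 to 0.0605). Over these 13 genes the median log2 fold change was -0.29, against -0.0045 over all tested genes. The number that fell was 5 with scaling by library totals or with no filter on low counts, where Mpi and Taldo1 did not pass.

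Of 10 tested genes for transporter trafficking and hexose sensing, 3 rose, 2 fell and 5 did not pass, near the 44.9% of all tested genes that passed, with a median log2 fold change of -0.05. Txnip and Arrdc4, arrestin-domain proteins known to draw GLUT1 from the cell surface, rose by 0.90 and 1.55 on the log2 scale (edgeR adjusted p = 3.7e-06 and 6.3e-04). Gipc1, which binds the tail of GLUT1, rose by 0.75 (edgeR adjusted p = 0.00663; named after its value was seen), with 859 counts in control replicate 1 against 455 and 550 in control replicates 2 and 3. Snx27, a sorting nexin that returns GLUT1 to the surface, fell by 0.41 and the GLUT1-binding stomatin gene Stom by 0.33 (edgeR adjusted p = 2.8e-04 and 0.00164).

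**Figure D4:**
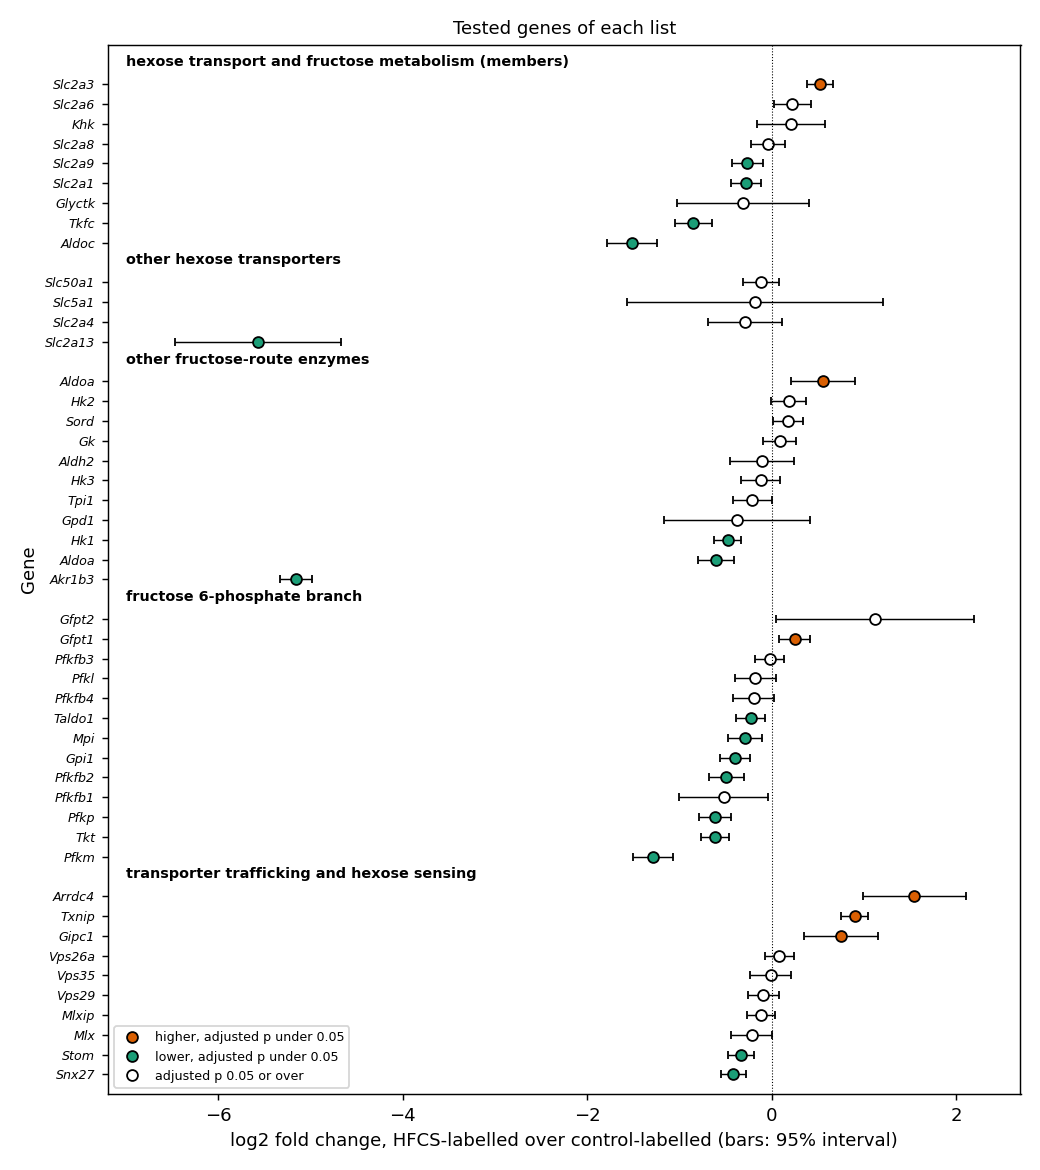
log2 fold change (HFCS-labelled over control-labelled) with 95% intervals for the tested genes of each list, orange where higher and green where lower at an adjusted p under 0.05. Slc2a13 at -5.57 and Akr1b3 at -5.16 stand far from the members, which range from -1.51 for Aldoc to 0.53 for Slc2a3; Aldoa appears once per identifier.

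The genes most alike were taken by the root mean square difference of log2 CPM, each gene centred on its own mean, over the 6 libraries among 9730 other named genes with a mean of at least 5 CPM. For Slc2a3 these were Crebbp (0.0328), Kdm2a (0.0340) and Svil (0.0346). For Tkfc they were Mrps6 (0.0479), Deaf1 (0.0520) and the pyruvate kinase gene Pkm (0.0531). For Aldoc they were Tert (0.0684), Card14 (0.0760) and Tns3 (0.0950), so its nearest profiles were less close than those of Slc2a3 and Tkfc. Aldoc also had fewer reads and a larger change than Slc2a3 and Tkfc, and whether these set the distance was not tested.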

How the data were processed

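Raw counts per gene were deposited for 6 RNA libraries of RAW264.7 cells, 3 per group by title. CASAVA, HISAT2 (2.0.5), featureCounts (1.5.0-p3) and build mm10 are named in the submitters' processing notes; strand setting, annotation release and filters: not given in the sources used here. Symbols were found for 24369 of 24379 identifiers, and exon lengths came from GENCODE M21, a mm10 annotation.

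Genes were kept by filterByExpr (minimum count 10), which left 14360 genes. The comparison used edgeR's quasi-likelihood test (version 4.0.16 in R 4.3.3; TMM scaling, no covariate), with Benjamini-Hochberg adjustment over all tested genes and a threshold of 0.05. SEs and 95% intervals came from the F statistic. The fit was tried on simulated data with 200 changed genes, far fewer than passed here. All genes had the same relative spread there, so the trial does not give the error rate here. Depth was 13108485 to 15340255 counts per library, so 3 counts correspond to 0.190 to 0.222 CPM. Without molecular identifiers reads can be PCR copies, so counting intervals and floors cover counting error only. No pair of replicates agreed within sampling noise (chi-square per degree of freedom 2.71 to 18.6).

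The members and gene lists were chosen with earlier results of these data known. The naming rule took all members, up to 4 genes per list with the smallest adjusted p, 11 further genes of these lists such as Hk2 and Txnip, and for Slc2a3, Aldoc and Tkfc the 3 most alike genes. Alternatives were a replicate block, each library left out, DESeq2 1.42.0, limma-voom, scaling by library totals, upper quartiles or median ratios, no filter, and 10 counts throughout a group; the transcript length was added after seeing the data. Some genes of these lists are not reported here.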

Additional observations from a re-analysis of the deposited data

How the results depend on the processing

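Slc2a3, Tkfc and Aldoc kept direction and call under all 14 alternatives, at log2 fold changes of 0.49 to 0.61, -0.88 to -0.77 and -1.56 to -1.43. Leaving out 1 library gave 1 to 3 members higher and 2 to 4 lower, with log2 fold changes of -0.33 to -0.20 for Slc2a1, 0.17 to 0.33 for Slc2a6, -0.045 to 0.0010 for Slc2a8, -0.28 to -0.22 for Slc2a9 and 0.080 to 0.41 for Khk; 3 members were higher without control replicate 1 and 2 lower without HFCS replicate 1. It gave 1 to 2 other fructose-route entries higher and 3 to 5 lower, and 0 to 2 genes of the fructose 6-phosphate branch higher and 5 to 8 lower. A lone pair of libraries was then set against 3, and the spread was pooled over genes. Scaling by library totals moved the median of all tested genes from -0.0045 to 0.08 and the share of calls that were higher from 49.99% to 60.3%. Under it 2 members were higher, with Slc2a6 at 0.31 past the threshold, Slc2a9 at -0.18 not, Slc2a8 at 0.042, and 3 fructose-route entries were higher. With no filter on low counts 2 members were higher, Slc2a6 at 0.26 passed and Slc2a9 at -0.23 did not. Whether the replicate numbers pair the libraries stayed unclear. Deviations from the group means correlated by 0.25, -0.10 and 0.27 for numbers 1 to 3. HFCS replicates 1 and 3 were nearest the control replicate of their own number, but HFCS replicate 2 was nearest control replicate 1 (0.22). With the replicate block 2 members were higher, as Slc2a6 passed at 0.23 (edgeR adjusted p = 0.0290), and 3619 genes were higher and 3533 lower in all, against 3223 and 3224. Among genes that passed under no setting, log2 fold changes crossed 0 with library totals for Pfkfb3 (0.059) and Vps35 (0.069), without the filter for both (0.014 and 0.023), and with single libraries left out for Pfkfb3 (-0.041 to 0.044), Vps35 (-0.12 to 0.093), Slc5a1 (-0.61 to 0.48), Hk3 (-0.19 to 0.0033) and Aldh2 (-0.22 to 0.16). The cause of these lost or gained calls was not tested. Counts of Slc2a5 and Glyctk were low, with 1 to 8 and 19 to 36 reads per library.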
